A study of Sus scrofa with 4 samples.

Results

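Smooth muscle cells of coronary vessels, pericytes on capillaries and the myofibroblasts of an infarct scar share a set of contractile and mural cell genes, and 10 such genes were followed here in minipig hearts after myocardial infarction (MI): ACTA2, ACTG2, TAGLN, CNN1, MYH11, CALD1, DES, MYLK, RGS5 and PDGFRB. They were chosen by gene symbol, taking every probe set that the annotation of the array platform assigns to one of them alone. This gave 13 of the 24123 probe sets on the array, which stand for 9 of 6765 genes with a symbol. No probe set carried the symbol of MYH11, the smooth muscle myosin heavy chain, which was therefore not analysed here. ACTG2, CALD1, DES and PDGFRB had 2 probe sets each and the other 5 genes 1 each.

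In smooth muscle, calcium bound to calmodulin activates myosin light chain kinase, the myosin light chain is phosphorylated, and the smooth muscle actins slide along myosin while calponin and caldesmon restrain the filaments. After infarction, cardiac fibroblasts in the wound take on smooth muscle alpha actin and become myofibroblasts, which contract the scar and lay down matrix. Vascular smooth muscle cells and pericytes keep their own contractile and receptor genes, so that RNA of whole tissue holds all of these sources together. Fewer cells of a type and less RNA per cell cannot be told apart in such tissue.

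RNA was measured on 4 Affymetrix arrays, 1 for each combination of zone and treatment: infarct zone after myoblast transplantation, infarct zone of control hearts, border zone after myoblast transplantation and border zone of control hearts. The methods describe female Chinese Bama minipigs, 4 months old, in which the left circumflex coronary artery was tied off for good. Human skeletal myoblasts were injected into the border of the infarct in DMEM medium after cyclosporin A. The labels add the infarct zone as a site of injection. They give the control tissue no treatment, whereas the paper names its control treatment group, given DMEM and cyclosporin A, for the array comparison. Neither source says how many minipigs or which week stand behind an array. There were no replicates, so no value below has an error between animals, no test was made, and a difference between 2 arrays may be a difference between 2 animals. The transplanted cells were human and the probes were designed on pig transcripts; the share of any signal that came from human RNA was not tested.

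Values are MAS 5.0 signals in linear units. Median signals were 137 to 142 and trimmed means 500.1 on all 4 arrays, and MYH7 and TNNT2, which mark heart muscle, were at 22651 or more on each. Of the 13 probe sets, 10 had a mean signal above the median over the array and 3 lay under it: the only one of MYLK and the dimmer ones of DES and PDGFRB. The signal ratio of the 3′ to the 5′ end of actin, a sign of how intact the RNA or its copies were, was 19.5 after myoblast transplantation and 36.8 in controls in the infarct zone, and 24.6 and 24.9 in the border zone. For GAPDH it was 1.38 and 1.52 in the infarct zone, and 1.73 and 1.55 in the border zone. The part of these ratios in the differences below was not tested.

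**Figure D1:**
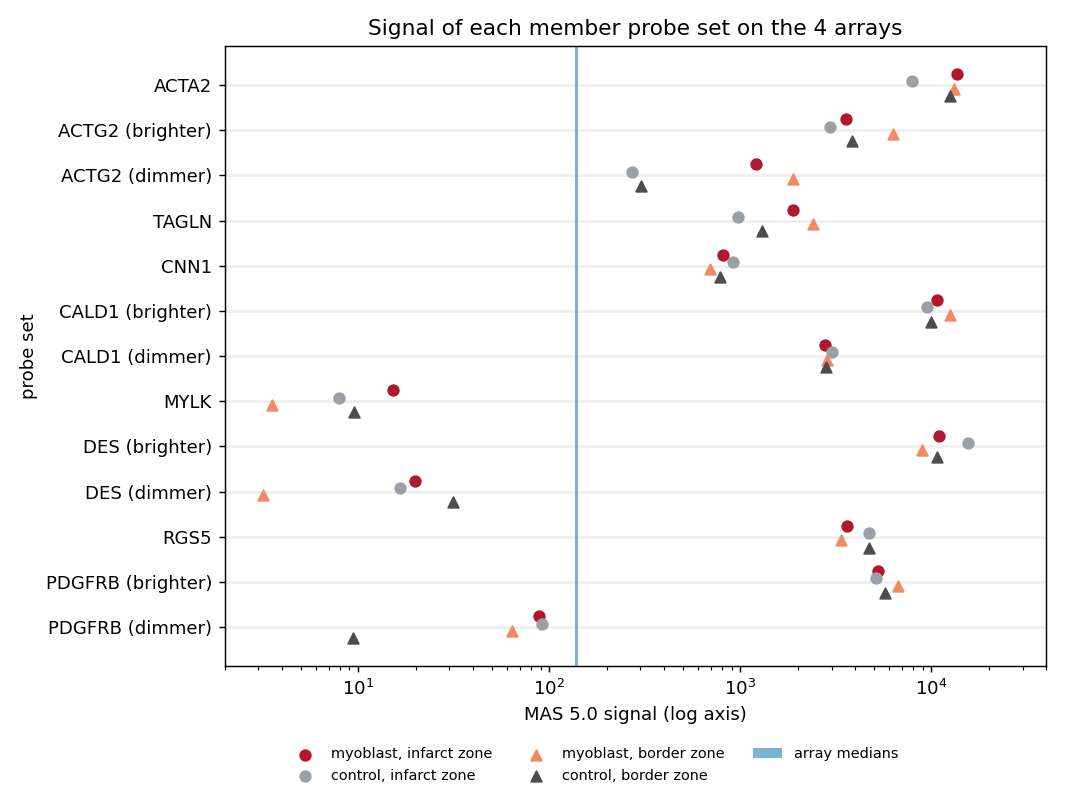
MAS 5.0 signal on a log axis (x) of each of the 13 probe sets (y) on the 4 arrays, with circles for the infarct zone, triangles for the border zone, red and orange for myoblast transplantation and greys for control; the blue line spans the array medians. The dimmer ACTG2 probe set has both myoblast signals (1201 and 1891) right of both control signals (272 and 302), and the signals of MYLK and of the dimmer DES and PDGFRB probe sets lie left of the medians.

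At the 2-fold threshold of the study's methods, 1 probe set of ACTG2 was apart between myoblast and control hearts in both zones, and 3 dim ones were in the border zone alone. In the infarct zone 1 of 13 probe sets was at least 2-fold apart, against 20.1% of all probe sets of the array. In the border zone it was 4 of 13, against 20.4%. Of these 4, the probe sets of MYLK and the dimmer ones of DES and PDGFRB had signals under the array median on every array. Of the 10 brighter probe sets, those above the median, 1 passed in each zone, the dimmer one of ACTG2, beside 4.32% of probe sets of like mean signal in the infarct zone and 4.68% in the border zone. At a lower limit of 1.5-fold, 3 of the 10 passed in the infarct zone (ACTA2, TAGLN and ACTG2) beside 16.0%, and 3 of the 10 in the border zone (both ACTG2 probe sets and TAGLN) beside 17.2%. Each of these 6 values was higher after myoblast transplantation. TAGLN and the dimmer ACTG2 probe set, 2 of the 10, were at least 1.5-fold higher in both zones, beside 3.31% of probe sets above the median signal. None of the 10 was at least 1.5-fold lower in both zones, beside 3.32%.

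**Figure D2:**
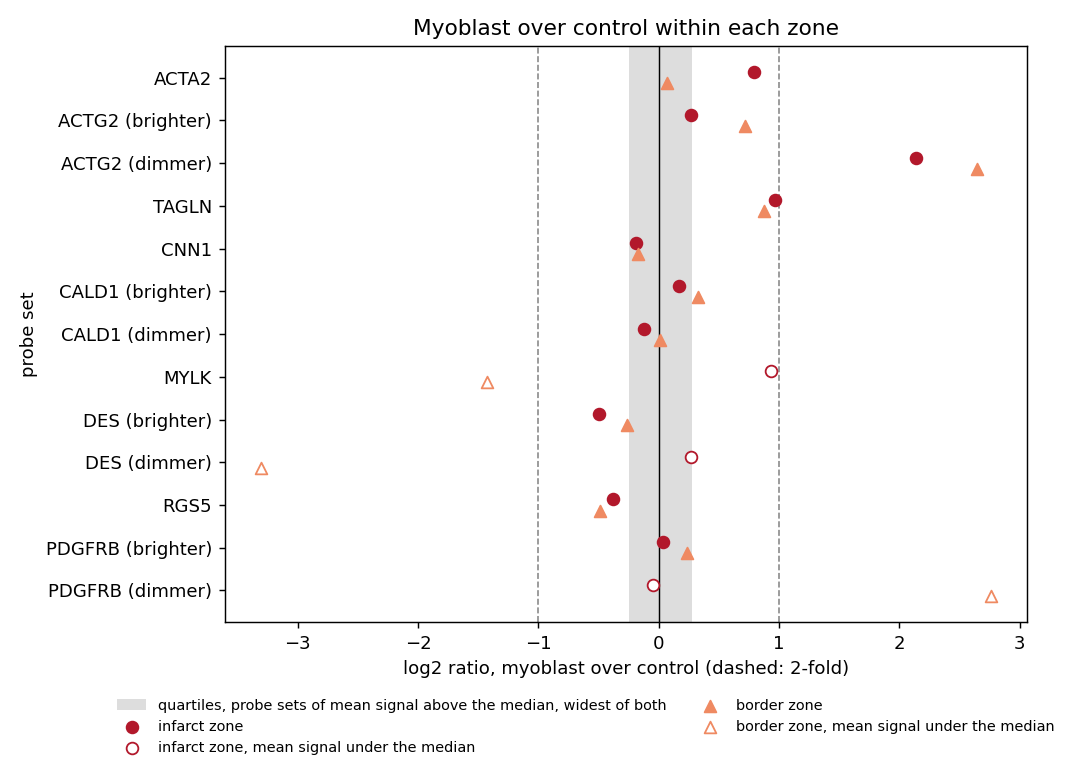
Log2 ratio of myoblast over control (x) of each probe set (y), with circles for the infarct zone and triangles for the border zone; open symbols mark probe sets with a mean signal under the median, dashed lines 2-fold and the grey band the quartiles of all probe sets above the median signal, the widest of both zones. TAGLN (0.97 and 0.87) and the dimmer ACTG2 probe set (2.14 and 2.65) lie right of the band in both zones, and RGS5 (-0.38 and -0.49) and the brighter DES probe set (-0.50 and -0.26) lie left of it.

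ACTA2 encodes smooth muscle alpha actin, the actin that marks myofibroblasts and vascular smooth muscle. Its probe set had signals of 13669.5 after myoblast transplantation against 7910.4 in control tissue of the infarct zone, and 13169 against 12531 in the border zone. The ratio of myoblast over control was 1.73 in the infarct zone and 1.05 in the border zone (log2 0.79 and 0.07). By quantitative PCR with replicate animals, the paper reports markedly lower ACTA2 mRNA in heart tissue after myoblasts than after control treatment. It gives no zone for that measure, and the difference in direction from these arrays was not tested. The control infarct array was thus low against the other 3 arrays, which lay between 12531 and 13669.5. The same array enters the comparison of zones in control hearts, where the infarct zone had 0.631 times the signal of the border zone, whereas in myoblast hearts the ratio of infarct over border was 1.04. The actin 3′/5′ ratio of 36.8 on the control infarct array was the highest of the 4, whereas its GAPDH ratio of 1.52 lay within the 1.38 to 1.73 of the other 3. The part of either in the ACTA2 signal was not tested.

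ACTG2, smooth muscle gamma actin, is typical of visceral smooth muscle and is also made in vessels. On its brighter probe set signals were 3551 with myoblasts against 2941 in controls in the infarct zone, and 6308 against 3833 in the border zone, ratios of 1.21 and 1.65. On the dimmer probe set they were 1201 against 272 in the infarct zone and 1891 against 302 in the border zone, ratios of 4.42 and 6.27. Both probe sets thus placed myoblast tissue above control in both zones, but their log2 ratios differed by 1.87 in the infarct zone and 1.93 in the border zone. Between zones the same pair of probe sets lay closer: infarct over border was 0.563 and 0.635 times in myoblast hearts, and 0.767 and 0.902 times in control hearts (brighter and dimmer). The transcripts of the actin genes resemble each other, and probe sequences were not used here, so how far either probe set also reads other actins was not tested. ACTC1, cardiac alpha actin, was at 25095 against 33639 in the infarct zone and 22786 against 30899 in the border zone (ratios of 0.746 and 0.737), on the other side of 1 from ACTG2.

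TAGLN (transgelin or SM22 alpha, an actin-binding protein that appears early as smooth muscle cells and myofibroblasts differentiate) had the nearest values in the 2 zones among the genes that were higher by 1.5-fold. Its probe set gave 1896 with myoblasts against 971 in controls in the infarct zone, and 2393 against 1305 in the border zone. Both myoblast arrays lay above both control arrays. The ratios were 1.95 and 1.83, just under the 2-fold threshold, with a mean over zones of 1.89. In the infarct zone the signal was 0.792 times that of the border zone in myoblast hearts and 0.744 times in control hearts.

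Calponin and caldesmon, which bind actin and hold back the myosin ATPase, gave ratios between 0.879 and 1.26. CNN1, the calponin of differentiated smooth muscle, had 808 with myoblasts against 919 in controls in the infarct zone, and 693 against 779 in the border zone. Its ratios of 0.879 and 0.889 lay below 1 in both zones, on the opposite side from TAGLN and ACTG2, but their log2 values (-0.19 and -0.17) were inside the quartiles of all probe sets above the median signal (-0.24 to 0.27 in the infarct zone and -0.24 to 0.28 in the border zone). The brighter CALD1 probe set had 10687 against 9487 in the infarct zone and 12431 against 9887 in the border zone, log2 ratios of 0.17 inside those quartiles and 0.33 above them. CALD1 is also expressed outside smooth muscle, in a shorter form of the protein, and the annotation does not say which form a probe set reads. On the other CALD1 probe set the 4 arrays lay between 2760.0 and 3009.6, with ratios of 0.917 and 1.005, against 1.13 and 1.26 on the brighter one. The highest array was 1.09 times the lowest on this dimmer CALD1 probe set, the narrowest span of the 13.

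MYLK, the kinase that starts smooth muscle contraction, was measured by 1 probe set at signals of 15.2 with myoblasts against 7.98 in controls in the infarct zone, and 3.54 against 9.50 in the border zone. All of these lie under the 25th percentile of their array (34.7 to 37.8), and the ratios of 1.91 and 0.373 point in opposite directions. With a floor at that percentile the log2 ratios were -0.02 and -0.07. The level of MYLK in these hearts was not resolved by this probe set.

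DES, the intermediate filament desmin, is made by vascular smooth muscle and pericytes but also by heart and skeletal muscle fibres. Its brighter probe set had 10976 with myoblasts against 15473 in controls in the infarct zone, and 8920.5 against 10679 in the border zone, ratios of 0.709 and 0.835. In both treatments the infarct zone was above the border zone, 1.23 times in myoblast hearts and 1.45 times in control hearts. On the dimmer DES probe set the signals were 19.9 with myoblasts against 16.6 in controls in the infarct zone and 3.17 against 31.3 in the border zone, all under the 25th percentile of the array. Markers of heart muscle lay on the same side as the brighter DES probe set: 10 of 12 measured (of 15 listed) were lower with myoblasts in the infarct zone and 11 of 12 in the border zone, with median log2 ratios of -0.36 and -0.28. Their summed signals were 242781 against 300958 in the infarct zone and 226013 against 261103 in the border zone, and the lowest signal of any of them on any array was 1246. The lowest mean ratios were those of ACTC1 and of MYL3, a light chain of ventricular myosin (0.754 and 0.720), and the highest those of NPPA, the atrial natriuretic peptide (3.38 and 4.24), and of the calcium release channel RYR2 (1.13 and 0.802). NPPA was the only one of the 12 at least 2-fold apart, higher with myoblasts in both zones. In the comparison of infarct over border zone, 8 of the 12 were higher in myoblast hearts and 10 of the 12 in control hearts. Their part in the values of DES was not tested. With quantile normalization the log2 ratios of the brighter DES probe set were -0.33 and -0.16, in place of -0.50 and -0.26. ACTG1, VIM and FN1 also had bright signals and were named after their values were seen. ACTG1 had ratios of 0.736 and 0.979, VIM 0.821 and 0.978, and FN1 1.21 and 1.63. The part of signal level in these ratios was not tested.

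RGS5 and PDGFRB mark pericytes and other mural cells. RGS5, which shortens signalling through G protein-coupled receptors, had 3613 with myoblasts against 4706 in controls in the infarct zone, and 3383 against 4738 in the border zone. Both myoblast arrays lay below both control arrays, with ratios of 0.768 and 0.714. The zones hardly differed, with infarct over border at 1.07 in myoblast hearts and 0.993 in control hearts (1.01 when each array was centred on its median). PDGFRB, the receptor through which platelet-derived growth factor recruits mural cells, had 5275 against 5148 in the infarct zone and 6683 against 5684 in the border zone. Its ratios were 1.02 and 1.18, and the first was below 1 (log2 -0.01) with arrays centred on their medians. The dimmer PDGFRB probe set had 88.2 against 91.2 in the infarct zone and 63.7 against 9.40 in the border zone. Its border zone ratio of 6.78 and its infarct over border ratio of 9.70 in control hearts rest on the control border signal of 9.40, and with a floor at the 25th percentile these log2 ratios were 0.81 and 1.33 in place of 2.76 and 3.28.

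Between the zones, ACTG2, TAGLN and the brighter CALD1 and PDGFRB probe sets had lower signals in the infarct zone in both treatments. CNN1 and the brighter DES probe set had higher ones. In myoblast hearts, 2 of 13 probe sets were at least 2-fold apart, those of MYLK and the dimmer DES, beside 18.0% of all probe sets, and none of the 10 above the median signal, beside 2.64%. At 1.5-fold, both ACTG2 probe sets passed, 2 of 10 beside 11.8%, and both were lower in the infarct zone. In control hearts, 1 of 13 was 2-fold apart, the dimmer PDGFRB probe set, beside 17.2%, and none of the 10 above the median, beside 0.647%. At 1.5-fold, 1 of 10 passed there, that of ACTA2, lower in the infarct zone, beside 4.98%. CNN1 was 1.17 and 1.18 times as high in the infarct zone as in the border zone (myoblast and control hearts). The comparisons of zones share their arrays with those of treatment, so a low or high array enters both.

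**Figure D3:**
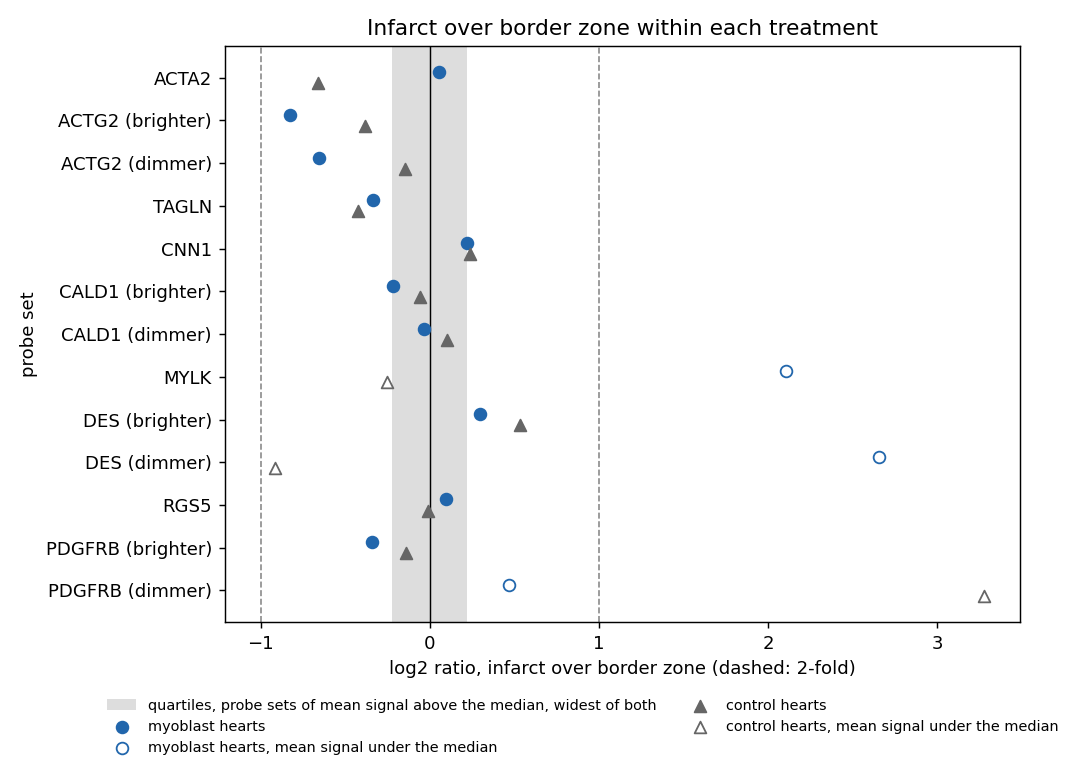
Log2 ratio of infarct over border zone (x) of each probe set (y), with circles for myoblast hearts and triangles for control hearts; open symbols, dashed lines and grey band are as in the plot of myoblast over control. Both ACTG2 probe sets, TAGLN and the brighter CALD1 and PDGFRB probe sets lie left of 0 in both treatments. DES (brighter) and CNN1 lie right of 0, while ACTA2 is at 0.05 in myoblast hearts and -0.66 in control hearts.

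Taken as a group, with each gene at its brightest probe set, the genes lay on both sides of 0 in the treatment comparisons and mostly below 0 between the zones of control hearts. The 9 genes had a median log2 ratio of myoblast over control of 0.17 in the infarct zone and 0.07 in the border zone, with quartiles of -0.19 to 0.79 and -0.26 to 0.33. Over all 6765 genes the medians were -0.0015 and 0.022. In the infarct zone 6 of the 9 were above 0, beside 49.8% of all genes, and in the border zone 5 of the 9, beside 52.0%. For infarct over border the median of the 9 was 0.05 in myoblast hearts and -0.14 in control hearts, beside 0.04 and 0.03 over all genes. The 9 include MYLK, whose level was not resolved. Without it, the medians of the 8 genes above the median signal were -0.08 and -0.10. For myoblast over control the medians of these 8 were 0.10 in the infarct zone and 0.15 in the border zone, with 5 of 8 above 0 in each. Above 0 were 5 of the 9 in myoblast hearts, beside 54.5% of all genes, and 2 of the 9 in control hearts (CNN1 and DES), beside 54.7%. The quartiles of the 9 in control hearts were -0.38 and -0.0095. The upper quartile was the RGS5 value, which was 0.0097 with arrays centred on their medians. For the 8 genes above the median signal the upper quartile was 0.05. The actins, TAGLN and the brighter CALD1 probe set were above control in both zones and CNN1, DES and RGS5 below it in both, so that the treatment medians held values on both sides.

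Other genes of smooth muscle contraction were taken from lists, each at its brightest probe set. Over all genes taken this way 12.1% were at least 2-fold apart between myoblast and control in the infarct zone and 12.1% in the border zone; of those above the median signal it was 3.83% and 3.87%. Of 30 genes of contractile filaments and their anchors, 22 were measured, with median log2 ratios of myoblast over control of -0.08 in the infarct zone and 0.12 in the border zone. None was 2-fold apart in the infarct zone and 2 were higher in the border zone, 1 of them under the median signal. Among those above the median signal the highest mean ratios over zones were those of TPM2, a tropomyosin (1.93 in the infarct zone and 1.09 in the border zone), and ITGA8, an integrin chain of smooth muscle and fibroblasts (1.004 and 2.14). The lowest were those of SYNM, the muscle intermediate filament protein synemin (0.732 and 0.557), and TPM1, a tropomyosin of heart and smooth muscle (0.784 and 0.751). TPM2, like ACTA2, was lowest on the control infarct array, at 2537 against 3439.7 to 4900.0 on the other 3. Its infarct over border ratio in myoblast hearts was 1.30, against 1.04 for ACTA2. MYL9, the regulatory light chain of smooth muscle myosin, had ratios of 0.790 and 0.785. MYL9 was named after its values were seen.

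Of 31 genes that control smooth muscle contraction, 19 were measured. In the infarct zone 2 were at least 2-fold higher and none lower, and in the border zone 4 were higher and 1 lower, of which 4 were under the median signal, with median log2 ratios of 0.03 and -0.03. RGS2, a relative of RGS5 that dampens Gq signalling in vascular smooth muscle, had 5000.4 with myoblasts against 1900.0 in controls in the infarct zone, and 4369 against 2091 in the border zone. Its ratios of 2.63 and 2.09 stand beside those of 0.768 and 0.714 for RGS5. KCNMB1, the smooth muscle subunit of the large-conductance calcium-activated potassium channel, had 336 against 97.4 in the infarct zone and 189 against 159 in the border zone (3.45 and 1.19 times). The control infarct array was again the lowest, and 97.4 is under the median of that array. The kinases ROCK1 (0.853 and 0.550 times) and ROCK2 (1.22 and 0.533 times), which inhibit myosin phosphatase, had the lowest mean ratios above the median signal.

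Of 25 regulators of smooth muscle genes, 11 were measured and none was 2-fold apart between myoblast and control in either zone. MYOCD, the myocardin coactivator that drives these genes with serum response factor, had signals of 120.5 with myoblasts against 175 in controls in the infarct zone and 95.3 against 152 in the border zone, close to the array medians. TCF21, a transcription factor of epicardium-derived fibroblasts and smooth muscle precursors, had ratios of 1.65 and 1.48, and TGFBR1, a receptor chain for TGF-β, 1.16 and 1.45. FHL2, a LIM protein of heart and smooth muscle, had 0.621 and 0.678, and the ligand TGFB1 0.837 and 0.952. Serum response factor itself was among the 14 listed genes without a probe set of their own symbol and was not analysed here.

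Markers of other cell types are given beside these values, and their part in them was not tested. Of 13 pericyte genes other than the members, 6 were measured, and with myoblasts 1 was at least 2-fold higher in the infarct zone, 2 were higher in the border zone and none was lower in either; 1 in each zone was under the median signal. MCAM (1.85 and 1.07 times), an adhesion molecule of mural and endothelial cells, and ANGPT1, angiopoietin 1 (1.03 and 2.23 times), were the highest above the median signal. HIGD1B (0.803 and 0.673 times) and the channel subunit KCNJ8 (0.917 and 0.779 times) were the lowest, and both lay below 1 in both zones, as RGS5 did. The summed signals of the 6 were 3786 against 3638 in the infarct zone and 3232 against 3708 in the border zone.

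Fibroblast and myofibroblast matrix genes differed between the zones. Of 12 measured (of 17 listed), 5 were higher with myoblasts in the infarct zone and 11 in the border zone, with median log2 ratios of -0.29 and 0.62. At 2-fold, 1 was higher and 1 lower in the infarct zone, and 2 were higher and none lower in the border zone. The collagen cross-linking enzyme LOX (6.78 and 5.42 times) and the cadherin CDH11 (1.77 and 2.93 times) were the highest. COL3A1, a fibrillar collagen (0.371 and 0.745 times), and the surface protein THY1 (0.558 and 1.17 times) were the lowest. COL3A1 was at 118 against 318 in the infarct zone and 155 against 208 in the border zone, and 118 is under the median of its array. The summed signals of the 12 were 75245 against 92306 in the infarct zone and 126176 against 91754 in the border zone. ACTA2 ran the other way, with its larger ratio in the infarct zone. The zone ratio of ACTG2 in myoblast hearts (0.563 and 0.635) lay on the same side as the matrix list, of which 11 of 12 were lower in the infarct zone there, with a median log2 ratio of -0.77.

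For endothelium 12 of 13 listed genes were measured, with summed signals of 18747 against 10544 in the infarct zone and 14203 against 11702 in the border zone and median log2 ratios of 0.42 and 0.36. At 2-fold, 3 were higher and 1 lower in the infarct zone, and 1 higher and 1 lower in the border zone; 2 of these in each zone were under the median signal. Of the endothelial genes above the median signal, the adhesion molecules VCAM1 (2.99 and 1.59 times) and CDH5 (2.04 and 1.37 times) were the highest. The lowest of these were VWF (1.05 and 0.899 times) and PECAM1 (1.12 and 0.860 times). For macrophages and monocytes 10 of 13 were measured, with summed signals of 10689 against 7355 and 8541 against 6207 and medians of 0.52 and 0.61. There 1 was 2-fold higher in the infarct zone, and 2 were higher and 1 lower in the border zone; the 1 in the infarct zone and 2 of the 3 in the border zone were under the median signal. Of those above the median signal, the integrin chain ITGB2 (1.55 and 2.36 times) and the complement receptor VSIG4 (1.48 and 1.85 times) were the highest. The scavenger receptors CD163 (1.39 and 0.792 times) and MRC1 (1.47 and 1.22 times) were the lowest of these. By immunofluorescence, the paper reports fewer CD11b-positive inflammatory cells in heart tissue after myoblasts. ITGAM, the gene of CD11b, was named here for that measure. Its signals were under the array medians, at 34.1 against 51.1 in the infarct zone and 30.9 against 9.51 in the border zone. The difference in direction between the paper's cell counts and the medians of this list was not tested. Of 18 skeletal muscle genes 10 were measured, with 2 at least 2-fold higher and 4 lower in the infarct zone and 2 higher and 3 lower in the border zone, and MYOD1 and MYF5, which define myoblasts, were at 45.3 or lower on every array. TNNT1, slow skeletal troponin T, was the only one above the median signal, at 13056 against 8196 in the infarct zone and 11481 against 5519.9 in the border zone.

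**Figure D4:**
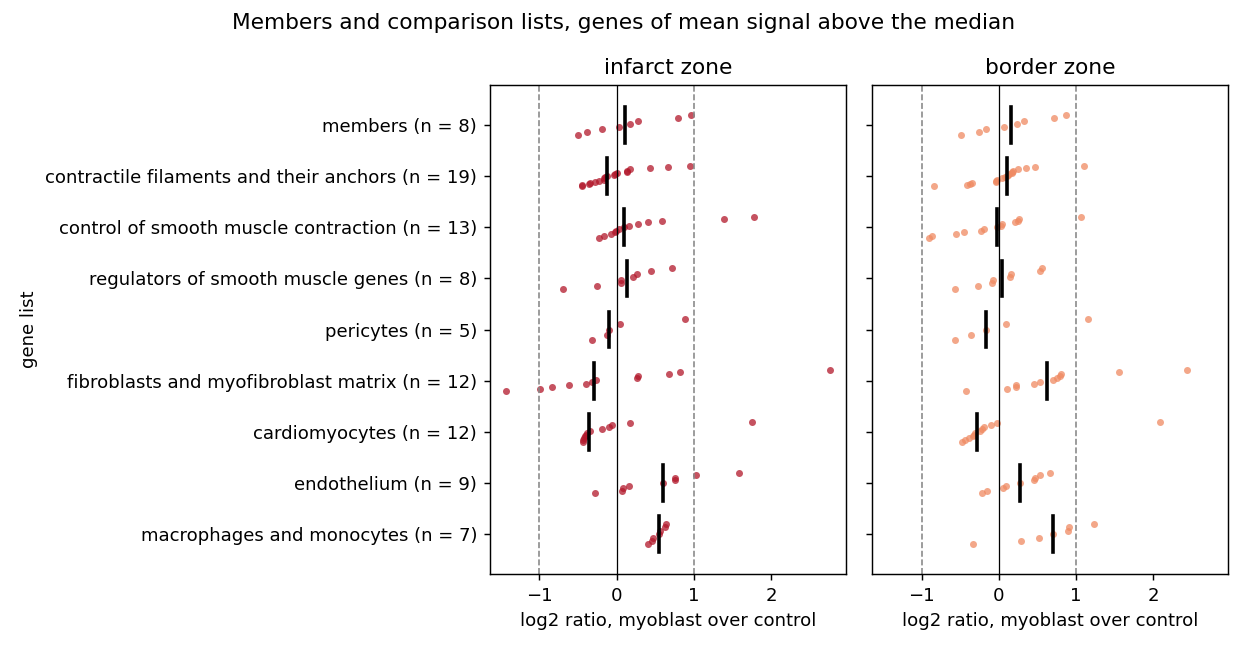
Log2 ratio of myoblast over control (x) in the infarct zone (left) and the border zone (right) of genes with a mean signal above the median, 1 point per gene at its brightest probe set, by list (y); black bars are medians and dashed lines 2-fold. The 8 smooth muscle and myofibroblast genes spread on both sides of 0 in both zones (medians 0.10 and 0.15), the matrix list has its median left of 0 in the infarct zone and right of 0 in the border zone, and 11 of 12 heart muscle markers lie left of 0 in the border zone.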

How the data were processed

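RNA of whole heart tissue was hybridized to Affymetrix Porcine Genome Arrays, 1 array per combination of zone and treatment. The authors deposited log2 signals of the MAS 5.0 algorithm, in which background is removed and all arrays are brought to 1 trimmed mean; the submitters' processing notes name MAS5, and GeneSpring is named in the methods. They were used as deposited, and all 24123 probe sets were kept. Gene names came from the annotation of the array platform, with 10099 probe sets of a single symbol, 198 of several and 13826 of none; those of several symbols were not named.

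Ratios were differences of log2 signals, myoblast minus control within a zone and infarct minus border within a treatment. At least 2-fold apart, the threshold of the methods, was counted as past the threshold. With 1 array per group no test was made, and the number of arrays limits the precision. Probe sets were also split at the median of their mean log2 signals (136 units). All probe sets of the 10 symbols are given; from each of 9 lists the text names the 2 highest and the 2 lowest genes in the mean ratio over zones among those above that median, and exceptions are marked. MYOCD, MYOD1, MYF5, MYH7, TNNT2 and ACTC1 were named for their roles, with values known. The members and lists were chosen with earlier results of these data known. Alternatives were centring on array medians, quantile normalization, a floor at the median or the 25th percentile, thresholds of 1.5-fold and 4-fold, the brightest probe set of each gene, probe sets above the median signal, the mean over probe sets of a gene and the mean of both zones; those for the dimmer probe sets were added after the data were seen. Counting was tested on simulated data without noise and with planted changes past 2-fold, which checks the threshold rule alone. Python 3.11.15, numpy 2.4.6, pandas 2.3.3 and matplotlib 3.10.9 were used.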

Additional observations from a re-analysis of the deposited data

Results flagged for a closer look

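Some probe sets had log2 ratios on opposite sides of 0 in the 2 zones or in the 2 treatments, each on 1 array a side, and the difference was not tested. For ACTA2 the ratio of infarct over border zone was 0.054 in myoblast hearts and -0.66 in control hearts. MYLK had 0.93 and -1.42 for myoblast over control (infarct and border zone), and 2.11 and -0.25 for infarct over border zone (myoblast and control hearts), at signals under the 25th percentile of each array. The dimmer DES probe set had 0.27 and -3.31, and 2.65 and -0.92, at like signals. The dimmer PDGFRB probe set had -0.048 in the infarct zone and 2.76 in the border zone. On the dimmer CALD1 probe set the values were -0.12 and 0.0071 for myoblast over control, and -0.033 and 0.099 for infarct over border zone. RGS5 had 0.10 and -0.0095 for infarct over border zone (myoblast and control hearts).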

How the results depend on the processing

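For the 10 probe sets above the median signal, quantile normalization kept the direction of all 40 log2 ratios. The largest shift was 0.17, that of the brighter DES probe set for myoblast over control in the infarct zone. Centring arrays on their medians kept 38 of 40, the exceptions being PDGFRB in the infarct zone and RGS5 between zones of control hearts. The medians over genes moved by less than 1.5-fold under all 5 alternatives run for each. That limit (log2 0.585) is larger than any of the medians, so staying within it says little about their stability. In the infarct zone, the median of myoblast over control was 0.17. It became 0.04 with the floor at the 25th percentile, 0.02 with the mean over probe sets and 0.28 with quantile normalization. Between zones of control hearts, -0.14 became -0.06 with either floor and -0.19 with the mean over probe sets. Some counts at 2-fold depended on dim signals. For myoblast over control in the border zone, 4 of 13 became 1 with either floor or above the median signal, the dimmer ACTG2 probe set. The count was also 1 with the brightest probe set of each gene, but this was the dim one of MYLK. In the infarct zone, the count stayed at 1 with either floor and above the median signal, became 0 with the brightest probe sets and was 4 at 1.5-fold. For infarct over border zone in myoblast hearts, 2 became 0 with either floor or above the median signal, 1 with the brightest probe sets and 4 at 1.5-fold. In control hearts, 1 became 0 with the floor at the median, with the brightest probe sets or above the median signal, and 3 at 1.5-fold. With the floor at the median, the border zone log2 ratios of MYLK and of the dimmer DES probe set were 0.0068 each and the zone ratio of the dimmer PDGFRB probe set in control hearts was -0.0192, the values of a probe set with both signals at the floor. No replicate could be left out, and no paired analysis was possible because each group has 1 array.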
